A study of Mus musculus with 8 samples.

Results

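Scavenger receptors are membrane proteins that bind lipoproteins after these have been oxidized or acetylated. Unlike the LDL receptor, several of them are not shut down by the cholesterol they bring into the cell, so that macrophages carrying them can fill with cholesteryl ester and become the foam cells of an atherosclerotic plaque. The family is defined by ligand rather than by descent. Its class A members (Msr1, Marco, Scara5) have a collagen-like stalk, its class B members (Cd36, Scarb1) cross the membrane at both ends, and others are a lectin (Olr1), a lysosomal glycoprotein (Cd68), a membrane-bound chemokine (Cxcl16) and large receptors with EGF-like repeats (Stab1, Scarf1).

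These 10 genes, chosen by symbol as receptors or binding proteins of modified lipoproteins or close relatives of them, were read in RNA-Seq counts of whole aorta from mice lacking apolipoprotein E (ApoE-/-) and from wild-type (WT) mice. All 10 were among the 21859 genes counted, and 9 were among the 15077 genes with enough reads to be tested. Each genotype had 4 male mice of the C57BL/6 background, 40 weeks old and kept on normal chow, and each mouse gave 1 library of stranded, ribodepleted total RNA. The methods describe saline perfusion after an overnight fast. In ApoE-/- mice, lipoprotein remnants build up in plasma because the ligand for their removal is missing, and plaques form on chow. The gene is inactivated in every cell of the body, so that no tissue can be singled out as the source of a difference.

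Levels are given as CPM, the count on a gene per 1000000 read pairs that fell on genes, with TMM normalization for library composition. The ApoE-/- libraries held 23240995 to 23940156 pairs on genes and the WT libraries 18375898 to 21664598, so that 3 pairs correspond to 0.122 to 0.166 CPM. Apoe itself, the check of the labels, reached only 14.7 to 36.3 CPM where it was knocked out, and 536 to 857 CPM in WT aortas. One library stood apart. ApoE-/- replicate 1 had a Pearson correlation of 0.849 to 0.903 with the other ApoE-/- libraries across genes, which correlated at 0.951 to 0.971 with each other. With the WT libraries the other ApoE-/- libraries correlated at 0.935 to 0.968, and replicate 1 at 0.897 to 0.946. Its 8 contractile smooth muscle markers summed to 4803 CPM, against 12105 to 19605 CPM in the other ApoE-/- mice and 10671 to 20054 CPM across WT aortas. Each tested receptor's log2 fold change is therefore given with and without this mouse. The share of all read pairs that fell on genes also separated the genotypes, with 32.3% to 35.6% in ApoE-/- libraries and 27.9% to 30.2% in WT ones, and its part in the results was not tested.

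Among the 9 tested receptors, 3 lay higher in every ApoE-/- aorta than in any WT aorta. These were Msr1, Cd68 and Cxcl16, all of them products of macrophages, at 4.46, 4.63 and 3.26 times the WT mean. One receptor, the endothelial Scarf1, lay lower in every ApoE-/- aorta, at 0.748 of the WT mean. The other 5 overlapped between genotypes, among them Cd36, by far the most abundant, and Marco was close to the limit of detection. In edgeR's quasi-likelihood F test over all 15077 genes, none of the 9 passed an adjusted p of 0.05, and 3 higher and 1 lower had an unadjusted p under 0.05. DESeq2 on the same counts called these 4 genes.

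These counts are read against those of all tested genes. The share called by edgeR was 0.371% on the higher side and 0.0929% on the lower side, and the share called by DESeq2 was 3.12% and 1.69%. An unadjusted edgeR p under 0.05 was reached by 7.19% of tested genes on the higher side and 4.17% on the lower side. All 4 ApoE-/- values lay above all 4 WT values in 5.41% of tested genes and below them in 3.30%. The median log2 fold change was 0.25 over the 9 receptors and 0.05 over all tested genes.

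**Figure D1:**
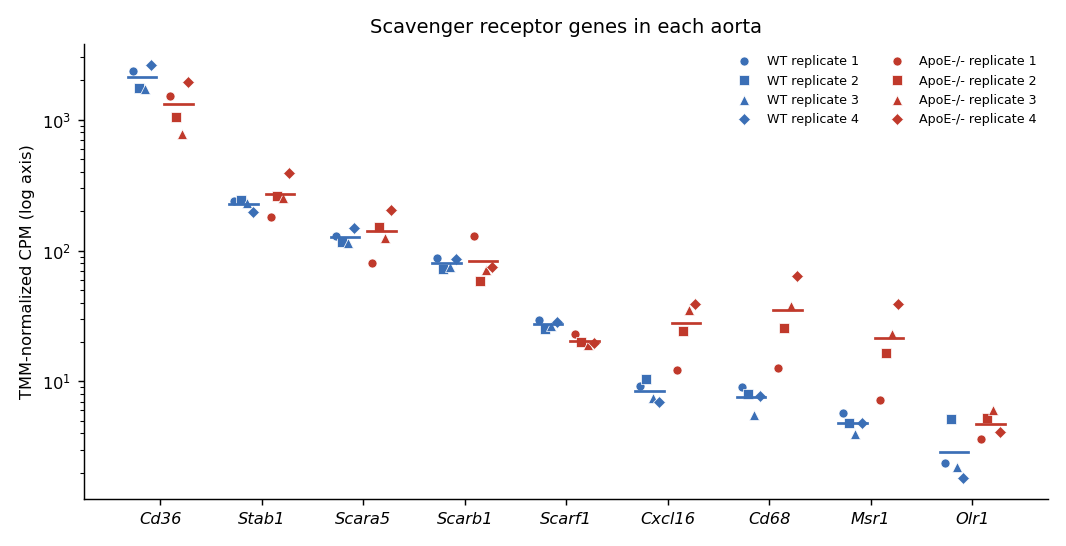
TMM-normalized CPM (log axis) of the 9 tested receptor genes in each aorta, with WT in blue, ApoE-/- in red, 1 symbol per replicate number and a line at each group's mean. Cxcl16, Cd68 and Msr1 separate upwards and Scarf1 downwards without overlap, and ApoE-/- replicate 1 (red circles) is the lowest ApoE-/- mouse for the first 3.

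The study measured Cd36 and Msr1 (as SRA) by PCR in other experiments, and these primers are shown because they fix which stretch of each transcript the assay reads. Each is printed 5′ to 3′, and the capital marks the one base that differs from the transcript.

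Cd36 forward: gaaccactgctttcaaaaactgg

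Cd36 reverse: tgctgttctttgccacgtca

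SRA forward: tgaacGagaggatgctgactg

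SRA reverse: ggaggggccatttttagtgc

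Both Cd36 primers lay in the coding part of exon 4 of the 15 exons of Cd36-201 (GRCm38, chr5:17820559-17820581 and chr5:17820480-17820499, minus strand), and their amplicon was 102 bases. All 6 annotated Cd36 transcripts contained both. The SRA primers lay in coding exons 2 and 3 of the 10 exons of Msr1-201 (chr8:39632776-39632796 and chr8:39631375-39631394, minus strand), with an amplicon of 97 bases in that transcript. All 5 annotated Msr1 transcripts held the best match of each primer. The forward primer carried the substitution G6A, in which the primer's base comes first, then the position from its 5′ end, then the base of the transcript.

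RefSeq promoter sequences (GRCm38.p6) were at hand for 5 of the 10 genes, namely Cd36, Cd68, Marco, Olr1 and Stab1. The 250 bases before the start were searched on both strands for AP-1 (TGANTCA), PU.1 (GAGGAA), the lysosomal CLEAR box (TCACGTGA) and the sterol element SREBP (TCACNCCAC). AP-1 and PU.1 are factors of macrophage differentiation and activation, and capitals mark their letters below. Cd68 is shown as the tested receptor with the largest log2 fold change. Olr1 is shown as the other one with both motifs, and Cd36 as the most abundant one.

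Cd68: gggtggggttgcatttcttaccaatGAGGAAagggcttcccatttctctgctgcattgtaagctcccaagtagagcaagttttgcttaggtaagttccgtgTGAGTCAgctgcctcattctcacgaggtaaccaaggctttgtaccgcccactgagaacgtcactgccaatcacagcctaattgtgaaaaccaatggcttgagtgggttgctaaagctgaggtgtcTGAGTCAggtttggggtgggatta

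Olr1: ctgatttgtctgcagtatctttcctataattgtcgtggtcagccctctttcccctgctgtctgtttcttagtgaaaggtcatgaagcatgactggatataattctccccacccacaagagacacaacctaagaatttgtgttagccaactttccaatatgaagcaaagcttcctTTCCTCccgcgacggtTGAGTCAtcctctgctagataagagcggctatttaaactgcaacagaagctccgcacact

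Cd36: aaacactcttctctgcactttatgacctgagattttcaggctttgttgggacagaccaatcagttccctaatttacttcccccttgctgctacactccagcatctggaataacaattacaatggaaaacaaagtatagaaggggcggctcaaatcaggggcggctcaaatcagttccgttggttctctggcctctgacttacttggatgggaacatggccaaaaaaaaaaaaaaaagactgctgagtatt

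These windows were chr11:69666171-69666420 for Cd68, chr6:129507166-129507415 for Olr1 and chr5:17835897-17836146 for Cd36, all on the minus strand. The Cd68 window held AP-1 letters 149 and 24 bases before the start and PU.1 letters 225 bases before it. The Olr1 window held AP-1 letters 60 bases before the start and PU.1 letters, on the other strand, 76 bases before it. Marco and Stab1 each held PU.1 letters alone, 146 and 30 bases before the start, and the Cd36 window held none of the 4 motifs. That window lies inside the annotated gene, before an internal start, and the windows of the other Cd36 starts were not analysed here. Of 32851 promoter windows of this length, 6.75% held AP-1 letters, 23.3% PU.1, 0.785% CLEAR and 1.05% SREBP. A match of letters is a description of the sequence and not a bound site.

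To compare levels between genes, CPM was divided by the length of the merged exons in kilobases. In WT aorta Cd36 came first, with a mean of 591 CPM per kb, and Stab1 and Scara5 followed at 22.1 and 20.8 CPM per kb. Scarf1 and Scarb1 had 9.47 and 9.45 CPM per kb, Cd68 had 6.03 and Cxcl16 had 2.82. Olr1, Msr1 and Marco closed the order at 0.813, 0.758 and 0.259 CPM per kb. The WT ranges of Stab1 and Scara5 overlapped, as did those of Scarf1 and Scarb1, of Olr1 and Msr1, and of Msr1 and Marco, whereas the other neighbours in this order were separated in the 4 WT mice. In ApoE-/- aorta Cd36 was again first with 368 CPM per kb, and Cd68 came next with 27.9 CPM per kb. The Cd68 range there overlapped those of Stab1, Scara5, Scarb1 and Cxcl16.

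Msr1 (ENSMUSG00000025044.16, GRCm38 chr8:39581685-39642673, minus strand) encodes the class A macrophage receptor SR-A, which takes up acetylated and oxidized LDL. Its level was 7.22, 16.5, 23.2 and 38.9 CPM in ApoE-/- replicates 1 to 4 and 5.69, 4.77, 3.93 and 4.84 CPM in WT replicates 1 to 4. The lowest ApoE-/- mouse, replicate 1, lay just above the highest WT mouse, and the other 3 lay far above it. The log2 fold change was 2.15 ± 0.46 (SE, n = 4 and 4) with an edgeR adjusted p of 0.0829 and a DESeq2 adjusted p of 0.000227. Without ApoE-/- replicate 1 it was 2.44 ± 0.29 and the edgeR adjusted p was 0.00806.

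Cd68 (ENSMUSG00000018774.13, chr11:69664213-69666153, minus strand) encodes macrosialin, a heavily glycosylated protein of macrophage endosomes and lysosomes that binds oxidized LDL and serves as a macrophage stain in plaques. Its level was 12.7, 25.4, 37.9 and 64.3 CPM in ApoE-/- replicates 1 to 4 and 9.09, 7.96, 5.54 and 7.76 CPM in WT replicates 1 to 4. The genotypes did not overlap, and the ApoE-/- mice stood in the same order as for Msr1. Its log2 fold change was 2.21 ± 0.46 (SE, n = 4 and 4), with an adjusted p of 0.0774 in edgeR and 0.000105 in DESeq2. Without ApoE-/- replicate 1 it was 2.48 ± 0.31 and the edgeR adjusted p was 0.00871.

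Cxcl16 (ENSMUSG00000018920.11, chr11:70453983-70459984, minus strand) encodes a transmembrane chemokine that binds phosphatidylserine and oxidized LDL at the cell surface and, once shed, attracts cells carrying the receptor CXCR6. It was measured at 12.1, 24.3, 35.2 and 39.4 CPM in ApoE-/- replicates 1 to 4 and at 9.27, 10.4, 7.42 and 6.99 CPM in WT replicates 1 to 4. Again no WT mouse reached the lowest ApoE-/- mouse. On the log2 scale the difference was 1.70 ± 0.35 (SE, n = 4 and 4), with an adjusted p of 0.0756 in edgeR and 0.00031 in DESeq2. Without ApoE-/- replicate 1 it was 1.95 ± 0.20 and the edgeR adjusted p was 0.00621. Its locus overlaps Zmynd15 by 552 bases and that of Stab1 overlaps Nt5dc2 by 112 bases, both on the opposite strand, and that of Scarb1 holds the gene model Gm42633, of 2764 bases, on the same strand. The deposited counts are labelled as stranded, but the annotation used for counting is not named in the sources used here. Any effect of these overlaps on the counts was not tested.

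Marco (ENSMUSG00000026390.7, chr1:120474538-120505024, minus strand) encodes a class A receptor of a subset of macrophages, best known for binding bacteria. It had 0, 0, 1 and 6 read pairs in ApoE-/- replicates 1 to 4 and 4, 5, 6 and 26 in WT replicates 1 to 4. The low-count filter removed it, and without the filter it was not called. Most WT pairs came from replicate 4, in which 4 mesothelial markers also summed to 34.5 CPM, against 2.27 to 11.9 CPM in the other 7 mice. The part of these cells in the Marco counts was not tested.

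Beside these receptors, of 12 macrophage markers, 11 lay higher in every ApoE-/- mouse than in any WT mouse, the exception being Mertk. Of these markers edgeR called only Fcgr1, with a log2 fold change of 2.32 ± 0.28 and an adjusted p of 0.0355, and Itgam came next at 1.58 ± 0.30 with an edgeR adjusted p of 0.0645. DESeq2 called 9. The median log2 fold change of the list was 1.56. Summed over the list the level was 502, 972, 1176 and 2104 CPM in ApoE-/- replicates 1 to 4 and 394 to 467 CPM across WT aortas, and no marker was at 0 in all libraries. The ApoE-/- mice thus stood in the same order for these markers as for Msr1, Cd68 and Cxcl16. In whole tissue, more cells of a type and more RNA per cell cannot be told apart.

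Dividing each receptor by the summed macrophage markers gave a value per unit of macrophage signal. The log2 ratio of Msr1 was -6.12, -5.88, -5.67 and -5.76 in ApoE-/- replicates 1 to 4 and -6.36, -6.37, -6.67 and -6.54 in WT replicates 1 to 4. All ApoE-/- ratios lay above all WT ratios, by 0.63 on average. For Cd68 the ratios did not overlap either, with a difference of 0.70 on the log2 scale. For Cxcl16 they overlapped, with a difference of 0.29 (exact two-sided permutation test, p = 0.257, adjusted p = 0.331). For Msr1 and Cd68 the exact permutation test gave p = 0.0286, the smallest that 4 mice against 4 allow. Of the 18 ratios computed, 10 reached this p, which gave an adjusted p of 0.0514 (Benjamini-Hochberg, exact permutation tests), and none passed 0.05. These ratios depend on the marker list. Mertk, whose genotypes overlapped, made up 26.6% to 41.8% of the macrophage sum in WT mice and 7.78% to 21.6% in ApoE-/- mice. Without it, an alternative chosen after the values were seen, the Msr1 ratios overlapped between genotypes with a difference of 0.30, the Cxcl16 difference was -0.04, and the Cd68 ratios did not overlap with a difference of 0.37 on the log2 scale. For receptors that did not follow the macrophage markers, a lower ratio includes the 2.78-fold higher sum of those markers and is not read as a difference of the receptor.

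**Figure D2:**
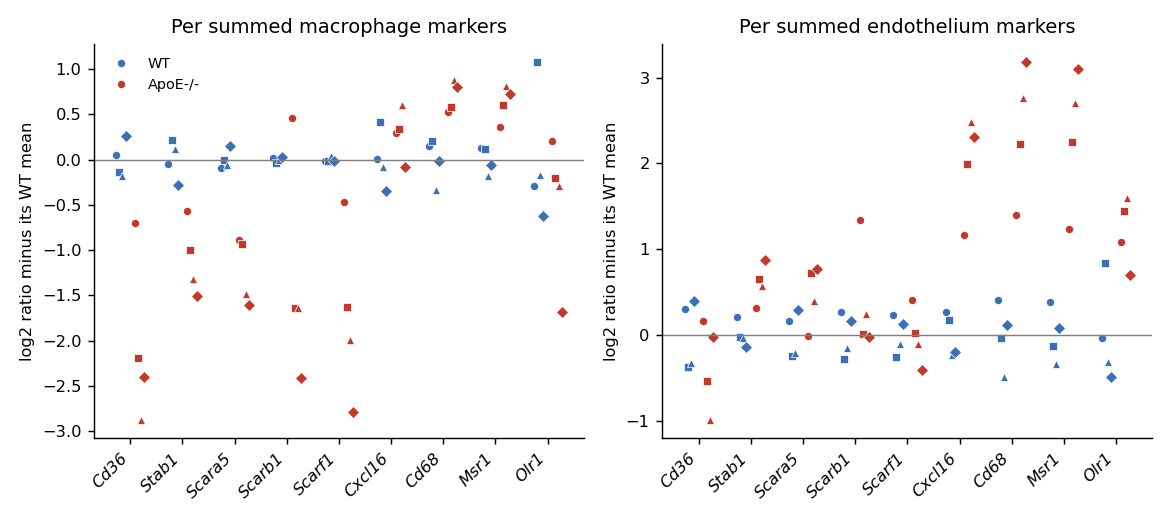
Log2 ratio of each receptor to the summed macrophage markers (left) and to the summed endothelium markers (right), less its WT mean, with 1 point per mouse (WT in blue, ApoE-/- in red, shapes as replicate numbers). Msr1 and Cd68 lie above WT on the left with the full marker list (for Msr1 not without Mertk), the low points of Cd36, Stab1, Scara5 and Scarf1 there include the higher marker sum by which all are divided, and Scarf1 is spread around 0 on the right.

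Scarf1 (ENSMUSG00000038188.17, chr11:75513540-75526582, plus strand) encodes SREC-I, a receptor first found on endothelial cells that takes up acetylated LDL and dying cells. Its level was 23.2, 20.1, 18.9 and 19.5 CPM in ApoE-/- replicates 1 to 4 and 29.5, 24.9, 26.4 and 28.5 CPM in WT replicates 1 to 4. The highest ApoE-/- mouse, replicate 1, lay below the lowest WT mouse. The log2 fold change was -0.42 ± 0.11 (SE, n = 4 and 4), with an adjusted p of 0.130 in edgeR and 0.00534 in DESeq2. Without ApoE-/- replicate 1 it was -0.49 ± 0.10 and the edgeR adjusted p was 0.0445. DESeq2 called Scarf1 in 5 of its 8 fits that left out 1 mouse, with an adjusted p of up to 0.0753. The Scarf1 difference was the smallest of the 4 non-overlapping ones and also the one with the smallest standard error.

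Of 10 endothelial markers, 5 lay lower in every ApoE-/- mouse than in any WT mouse and none lay higher. DESeq2 called 5 of them lower, edgeR none, and 6 had an unadjusted edgeR p under 0.05. Egfl7 and Emcn had the smallest p, with log2 fold changes of -0.72 ± 0.15 and -0.64 ± 0.15 and edgeR adjusted p of 0.0744 and 0.107. The sum of the list was 1862 to 2745 CPM in ApoE-/- mice and 2658 to 3169 CPM in WT mice, with overlap. Per unit of these markers, Scarf1 was -6.33, -6.70, -6.84 and -7.14 on the log2 scale in ApoE-/- replicates 1 to 4 and -6.49, -6.99, -6.83 and -6.61 in WT replicates 1 to 4. Here the genotypes overlapped, with a difference of -0.02 (exact two-sided permutation test, p = 0.914). The endothelial sum stood at 0.764 of its WT mean and Scarf1 at 0.748, and the part of endothelial content in the Scarf1 level was not tested.

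Olr1 (ENSMUSG00000030162.14, chr6:129485244-129507165, minus strand) encodes LOX-1, the main oxidized LDL receptor of endothelial cells, which inflammation induces. Its level was 3.61, 5.25, 6.01 and 4.08 CPM in ApoE-/- replicates 1 to 4 and 2.39, 5.20, 2.22 and 1.82 CPM in WT replicates 1 to 4. WT replicate 2 lay within the ApoE-/- range, and the other 3 WT mice lay below it. ApoE-/- minus WT gave a log2 fold change of 0.70 ± 0.36 (SE, n = 4 and 4), with an adjusted p of 0.545 in edgeR and 0.497 in DESeq2. Without WT replicate 2 the genotypes did not overlap, the log2 fold change was 1.14 and DESeq2 called the gene with an adjusted p of 0.0111, while edgeR did not. Leaving out ApoE-/- replicate 1, the edgeR value was 0.82 ± 0.37, with an adjusted p of 0.290. The log2 ratio of Olr1 to the endothelial markers overlapped between genotypes, with a difference of 1.20 that includes the lower marker sum. The exact two-sided permutation test gave p = 0.0571 and an adjusted p of 0.0935.

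Stab1 (ENSMUSG00000042286.13, chr14:31139013-31168641, minus strand) encodes stabilin-1, an endocytic receptor of sinusoidal and lymphatic endothelium and of tissue-resident macrophages. It was measured at 181, 259, 251 and 393 CPM in ApoE-/- replicates 1 to 4 and at 240, 244, 230 and 196 CPM in WT replicates 1 to 4. ApoE-/- replicate 1 was the lowest of all 8 mice and the other 3 ApoE-/- mice were the highest. Its log2 fold change was 0.25 ± 0.23 (SE, n = 4 and 4), with an edgeR adjusted p of 0.789. Without ApoE-/- replicate 1 it was 0.40 ± 0.18 and still not called, and without ApoE-/- replicate 4 it was 0.02. The log2 ratio of Stab1 to the endothelial markers did not overlap between genotypes, with a difference of 0.60. The exact two-sided permutation test gave p = 0.0286 and an adjusted p of 0.0514. This ratio includes the lower sum of those markers in ApoE-/- mice. Of the 5 lymphatic endothelial markers, 4 were tested and DESeq2 called only Pdpn higher, with an edgeR log2 fold change of 0.83 ± 0.24, a gene that stromal cells also express, while Prox1 had a log2 fold change of -0.58 ± 0.23.

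Cd36 (ENSMUSG00000002944.15, chr5:17781690-17888801, minus strand) encodes a class B receptor that binds oxidized LDL in macrophages and takes up long-chain fatty acids in adipocytes, muscle and capillary endothelium. Its level was 1508, 1041, 783 and 1946 CPM in ApoE-/- replicates 1 to 4 and 2361, 1759, 1731 and 2635 CPM in WT replicates 1 to 4. Of the ApoE-/- mice, 3 lay below all WT mice and replicate 4 lay among them. The log2 fold change was -0.69 ± 0.32 (SE, n = 4 and 4), with an adjusted p of 0.479 in edgeR and 0.216 in DESeq2. Without ApoE-/- replicate 4 the genotypes did not overlap, and the DESeq2 log2 fold change of -0.95 ± 0.27 had an adjusted p of 0.0155. It was not called in the other 7 fits that left out 1 mouse, nor by edgeR in any of the 8. Leaving out ApoE-/- replicate 1, the edgeR value was -0.76 ± 0.33, with an adjusted p of 0.276.

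Fat and heart muscle are both rich in Cd36, and their markers were read in the same libraries. The 8 adipocyte markers summed to 4773, 3471, 2798 and 8532 CPM in ApoE-/- replicates 1 to 4 and to 5443, 4024, 4174 and 7333 CPM in WT replicates 1 to 4. Within each genotype the mouse with the highest adipocyte sum, replicate 4, was also the one with the highest Cd36. The 7 cardiac markers summed to 23.6 to 129 CPM in ApoE-/- mice and to 222 to 508 CPM in WT mice, and all 7 lay lower in every ApoE-/- mouse. Of these 7, DESeq2 called 5 lower and edgeR none.

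As a measure chosen after its values were seen, Cd36 was divided by the adipocyte sum. The quotient was 0.316, 0.300, 0.280 and 0.228 in ApoE-/- replicates 1 to 4 and 0.434, 0.437, 0.415 and 0.359 in WT replicates 1 to 4. The lowest WT quotient lay above the highest ApoE-/- quotient. This quotient depends on the marker list, and no other list was tried. The 8 markers stood at 0.385 to 1.19 of their WT means, with Plin1 at 0.678. Their sum stood at 0.933 of its WT mean and Cd36 at 0.622. The log2 ratio of Cd36 to the endothelial markers, in contrast, overlapped between genotypes, with a difference of -0.35 (exact two-sided permutation test, p = 0.371, adjusted p = 0.418). None of the 8 adipocyte markers was called by edgeR or DESeq2, and none reached an unadjusted edgeR p under 0.05. Which cells carried the Cd36 reads cannot be told from whole aorta, and the part of fat and heart muscle in its level was not tested.

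**Figure D3:**
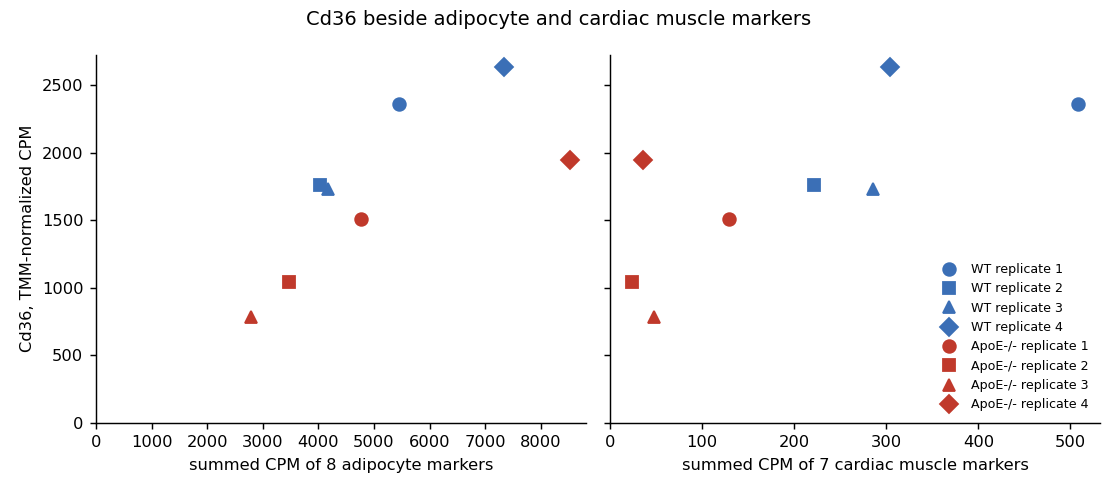
Cd36 level (TMM-normalized CPM, from 0) in each mouse against the summed CPM of 8 adipocyte markers (left) and of 7 cardiac muscle markers (right), with WT in blue, ApoE-/- in red and shapes as replicate numbers. On the left, only ApoE-/- replicate 1 has an adipocyte sum within the WT range, and it lies below every WT mouse in Cd36. On the right the 4 ApoE-/- mice lie at 129 CPM or less and the WT mice at 222 CPM or more.

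Scarb1 (ENSMUSG00000037936.15, chr5:125277087-125341094, minus strand) encodes SR-BI, the receptor through which HDL delivers cholesteryl ester to liver and steroid-producing cells. Its level was 130, 58.5, 70.9 and 74.3 CPM in ApoE-/- replicates 1 to 4 and 88.4, 72.3, 74.6 and 86.1 CPM in WT replicates 1 to 4. ApoE-/- replicate 1 was the highest of all mice, and ApoE-/- replicates 2 and 3 were the lowest. The log2 fold change was 0.05 ± 0.24 (SE, n = 4 and 4), with an edgeR adjusted p of 0.964, and it was -0.24 ± 0.12 without ApoE-/- replicate 1. The 5 adrenal cortex markers summed to 9.16 to 13.95 CPM in ApoE-/- mice and 11.3 to 15.4 CPM in WT mice, and replicate 1 did not stand out in them with 13.2 CPM.

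Scara5 (ENSMUSG00000022032.14, chr14:65666403-65764826, plus strand) encodes a class A receptor of stromal and epithelial cells that takes up ferritin. It was measured at 80.6, 151, 124 and 204 CPM in ApoE-/- replicates 1 to 4 and at 130, 117, 113 and 148 CPM in WT replicates 1 to 4. The ApoE-/- mice spanned the WT range on both sides. With a log2 fold change of 0.14 ± 0.26 (SE, n = 4 and 4), its edgeR adjusted p was 0.897, and without ApoE-/- replicate 1 these were 0.33 ± 0.18 and 0.374. The sign was not stable, since without ApoE-/- replicate 4 the edgeR log2 fold change was -0.10. The 6 fibroblast markers summed to 1588, 2910, 2801 and 4307 CPM in ApoE-/- replicates 1 to 4 and to 1786 to 2254 CPM in WT mice, so that the lowest and the highest ApoE-/- mouse were the same ones as for Scara5. Within that list DESeq2 called only Lum, the collagen-binding proteoglycan lumican, with an edgeR log2 fold change of 2.34 ± 0.40 and an edgeR adjusted p of 0.0526.

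**Figure D4:**
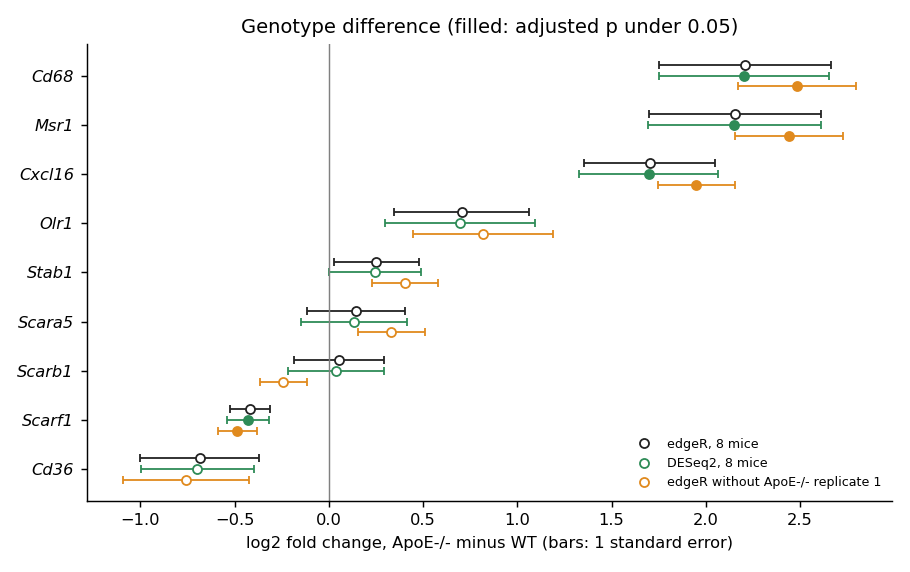
Log2 fold change of the 9 tested receptors (ApoE-/- minus WT, bars 1 SE) with edgeR and DESeq2 on all 8 mice and with edgeR without ApoE-/- replicate 1, filled where the adjusted p is under 0.05. The estimates of the tools nearly coincide on all 8 mice, and Cd68, Msr1, Cxcl16 and Scarf1 are filled for DESeq2 and for edgeR on 7 mice but not for edgeR on all 8.

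The genes most alike in pattern were found by the root mean square (RMS) difference of log2 CPM over the 8 libraries, after each gene was centred on its own mean. Of all tested genes, Msr1 was nearest to Cd68 and Cd68 to Msr1, with an RMS difference of 0.0885. Plek and Cd84, genes of blood-derived cells, followed for Msr1 at 0.102 and 0.133, and Cd84 and Cd300c2 for Cd68 at 0.111 and 0.113. For Cxcl16 the nearest were Pik3r5, Atp8b4 and Nckap1l, at 0.155, 0.222 and 0.233.

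Scarf1 was nearest to Hacl1 at 0.0413, followed by Arap3 and Rps10 at 0.0625 and 0.0656. For Cd36 the nearest were Wdr93, Slc25a51 and Gpat4, at 0.103, 0.109 and 0.117. For Stab1 they were Lmo2, Ccdc90b and Cmtm7, at 0.0876, 0.110 and 0.112. Scarb1 was nearest to Tril, G6pc3 and Nelfcd, at 0.0667, 0.083 and 0.0947, and Scara5 to Plekhf1, Rnft1 and Pi16, at 0.141, 0.149 and 0.154. Olr1 had the neighbours Ddit4l, Pipox and Slc17a9, at 0.271, 0.279 and 0.284. A gene with a small range over the libraries has near neighbours more easily than one with a large range, so these distances are not comparable between receptors.

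Other scavenger receptors were read from a list of 14 genes, of which 12 were tested. Their median log2 fold change was 0.46. Of the 12, 2 lay higher in every ApoE-/- mouse, 0 lay lower in every one, 3 had an unadjusted edgeR p under 0.05 on the higher side and edgeR called none. DESeq2 called Cd44, the hyaluronan receptor of leukocytes and activated smooth muscle cells. Cd44 was measured at 83.3 to 200.03 CPM in ApoE-/- mice and 44.9 to 48.3 CPM in WT mice, with a log2 fold change of 1.47 ± 0.25, an edgeR adjusted p of 0.0526 and a DESeq2 adjusted p of 1.6e-05. Scara3 and Mrc1, the macrophage mannose receptor, had log2 fold changes of 1.09 ± 0.37 and 0.92 ± 0.36 with edgeR adjusted p of 0.280 and 0.359.

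Genes that handle lipoprotein lipid after uptake formed a list of 13, all tested, with a median log2 fold change of 0.24. Of these, 2 lay higher in every ApoE-/- mouse, 4 had an unadjusted edgeR p under 0.05 on the higher side and none on the lower side, and edgeR called none. DESeq2 called 2. The first was Abcg1, which exports cholesterol to HDL, at 62.3 to 136 CPM in ApoE-/- mice and 27.5 to 49.3 CPM in WT ones. It had a log2 fold change of 1.40 ± 0.30 with an adjusted p of 0.0853 in edgeR. The second was Soat1, which esterifies cholesterol for storage in droplets, at 44.5 to 81.0 CPM and 33.1 to 40.9 CPM, with a log2 fold change of 0.82 ± 0.18 and an edgeR adjusted p of 0.0970.

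**Figure D5:**
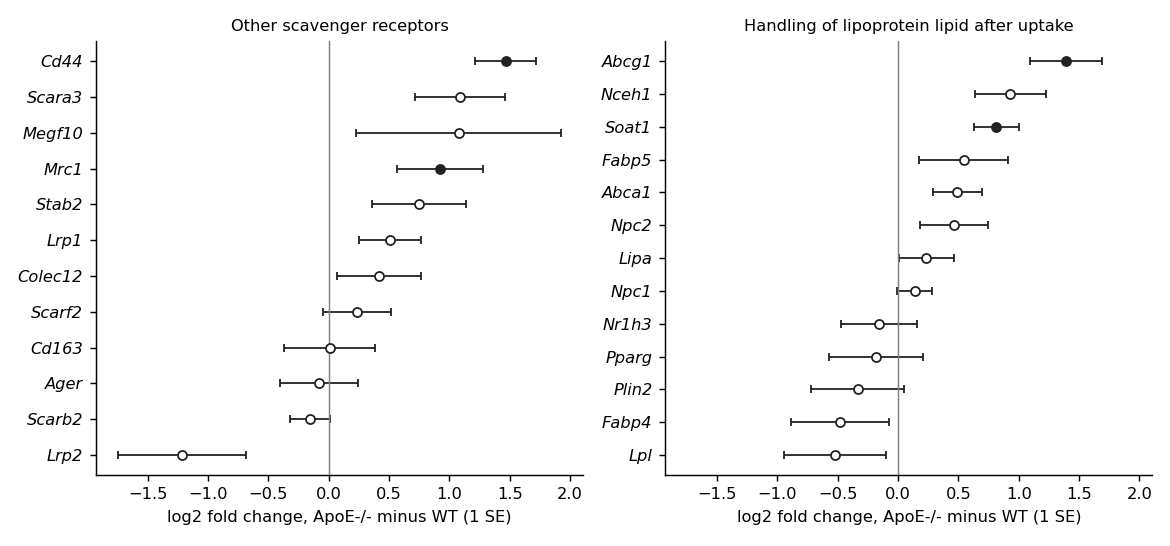
edgeR log2 fold change (ApoE-/- minus WT, bars 1 SE) of 12 tested other scavenger receptors (left) and 13 genes of lipid handling (right), filled where the genotypes did not overlap. Cd44, Mrc1, Abcg1 and Soat1 are filled, all to the right of 0.

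Markers of other cells that whole aorta can hold are given next, and edgeR called none of those described. Of the contractile smooth muscle list none of 8 reached an unadjusted p under 0.05, the smallest being those of Des and Tagln, with log2 fold changes of -0.40 ± 0.21 and -0.26 ± 0.40. In the fibroblast list Pdgfra followed Lum at 0.46 ± 0.23, and in the adipocyte list Lep and Plin1 led at -1.38 ± 0.66 and -0.56 ± 0.38. Among cardiac markers Myl4 and Tnnt2 had -2.46 ± 0.48 and -2.07 ± 0.46, and among skeletal muscle markers Ckm and Tnnt3 had -1.54 ± 0.41 and 0.90 ± 0.35, of which DESeq2 called Ckm lower. The sum of 4 B cell markers was 4.81 to 11.9 CPM in ApoE-/- mice and 2.99 to 5.17 CPM in WT mice, with a median log2 fold change of 1.20. All 4 log2 fold changes were above 0, and 2 of the genes, Cd79b and Pax5, had an unadjusted edgeR p under 0.05, at 1.29 ± 0.46 and 1.33 ± 0.48. DESeq2 called none of these 4 or of the T cell, mesothelial and adrenal cortex markers. The leading genes of the T cell, mesothelial and adrenal cortex lists were Cd3g and Cd2 at 0.96 ± 0.40 and 0.73 ± 0.45, Msln and Lrrn4 at -2.90 ± 1.11 and -0.80 ± 0.50, and Cyp11a1 and Star at -0.51 ± 0.73 and -0.07 ± 0.17.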

How the data were processed

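The authors made stranded, ribodepleted total RNA libraries (TruSeq, HiSeq, paired-end) and deposited, for each aorta, raw counts of read pairs per gene without normalization. The submitters' processing notes name TopHat2, HTSeq, GRCm38 and mm10. Pairs counted on genes were 27.9% to 35.6% of all pairs, and the rest (no gene, an ambiguous gene or several places) stayed out of library sizes.

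Groups came from the genotype labels, and nothing but the replicate number distinguishes mice of a group. Counts were tested in R 4.3.3 with edgeR 4.0.16 (filterByExpr, TMM, robust quasi-likelihood F test, two-sided, Benjamini-Hochberg over 15077 genes, threshold 0.05). An SE is the log2 fold change divided by the square root of F. DESeq2 1.42.0, limma-voom 3.58.1, other scalings and filters, the replicate block and leaving out each mouse were alternatives. Code was tested on simulated data. Ratios to summed marker CPM used exact permutation tests over 70 assignments. Marco, with counts of 0, was left out of the ratios, leaving 18 of 20.

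Coordinates came from GENCODE M21 (21817 of 21859 identifiers matched without version), primers from the supplement (edlib 1.3.9.post1) and promoters from RefSeq. Motifs were searched in the 250 bases before the start, leaving out the transcribed bases. The text names all 10 receptors, Apoe, from each list the genes past edgeR's threshold or, where fewer than 2 pass, the 2 with the smallest p, and for each receptor the 3 genes nearest in pattern. Mertk and Mrc1 are named in addition, after their values were seen. One B cell marker is not reported here, so the 4 others are given. The receptors and lists were chosen with earlier results of these data known. Same-numbered mice of both genotypes had correlations of -0.45 to 0.32 across genes in their deviations from group means, beside -0.67 to 0.67 for other pairs. The labels do not say whether the numbers pair mice, and this check cannot decide it.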

Additional observations from a re-analysis of the deposited data

Results flagged for a closer look

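Dixon's gap test at the 95% level was applied to 90 groups of 4 mice (receptor levels, marker sums, ratios and library totals), and 5 were past its critical value, where chance alone gives about 1 in 20 (4.5 of 90). Each value below is the gap to the nearest mouse as a share of the group's range. Olr1 in WT replicate 2, at 5.20 CPM, had a share of 0.832. Marco in WT replicate 4, at 1.24 CPM, had a share of 0.860, and Marco in ApoE-/- replicate 4, at 0.260 CPM from 6 read pairs, had a share of 0.833. The log2 ratio of Scarf1 to macrophage markers in WT replicate 3, at -3.92, had a share of 0.931 within a WT range of -3.98 to -3.92. The total of all read pairs in ApoE-/- replicate 4, at 67231818, had a share of 0.835.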

How the results depend on the processing

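edgeR called 70 tested genes, DESeq2 725, limma-voom 29 and the fit with the replicate block 2. The other scalings, filters and the fit without robust estimation gave 63 to 74. Leaving out 1 mouse gave 0 to 593 with edgeR and 445 to 1562 with DESeq2. Of the receptors, edgeR called 0 (unadjusted p under 0.05 in 4) and DESeq2 4, and leaving out 1 mouse gave 0 to 4 with edgeR and 3 to 5 with DESeq2. The edgeR calls came without ApoE-/- replicate 1 (593 genes, 4 receptors), and the other 7 such fits gave 0 to 17 genes and 0 receptors. DESeq2 called Msr1, Cd68 and Cxcl16 in all 8 of its fits without 1 mouse and Scarf1 in 5 of 8. The replicate block was fitted in edgeR only, where no receptor was called to begin with, and the adjusted p of Msr1, Cd68 and Cxcl16 was 0.251 in it. The count of non-overlapping receptors was 4 under each scaling and 4 or 5 without 1 mouse. The cause of these differences was not tested. No ratio to marker sums passed an adjusted p of 0.05 with the macrophage list without C1q genes and the endothelial list without Vwf, or with the macrophage list without Mertk. Marco's 0 to 26 read pairs per library limit what can be said of it.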
